A study of Mus musculus with 4 samples.

Results

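The genes described here encode 4 glucose transporters (Slc2a1, Slc2a3, Slc2a6 and Slc2a8), 4 carriers of the monocarboxylate family (Slc16a1, Slc16a3, Slc16a6 and Slc16a10) and Bsg, the chaperone that the lactate carriers need. They were taken by name, and all 9 of 9 were measured, among 19938 genes in all, each by 1 probe set of an Affymetrix whole-transcript array. The arrays held RNA of leukemia stem cells of a mouse model of chronic myeloid leukemia, 2 samples from Hif1a-/- donors and 2 from WT C57BL/6 (B6) donors. In both groups the donors had been given 5-fluorouracil, the donor marrow carried a retrovirus with BCR-ABL and GFP, and the cells grew in B6 recipients. At 14 days after transplantation, cells positive for GFP, c-Kit and Sca-1 and negative for lineage markers were sorted out of the recipients' marrow. The labels give an age of 8 weeks, without saying of which mice, and do not say how the Hif1a allele was made or which exons it lacks. They name the samples biological replicates but no separate animals, so the p-values below measure the spread between these samples. The values were log2 expression after robust multi-array averaging (RMA), with array medians from 8.53 to 8.57.

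Glucose enters cells through facilitative transporters of the Slc2 family, down its gradient. Slc2a1 encodes GLUT1, the basal transporter of most blood cells, and Slc2a3 encodes GLUT3, which has a high affinity for glucose. Lactate made by glycolysis leaves with a proton through carriers of the Slc16 family, chiefly MCT1 (Slc16a1), which works in both directions, and MCT4 (Slc16a3), which is typical of highly glycolytic cells. Both need basigin, the product of Bsg, to reach the cell surface. HIF-1, whose oxygen-regulated subunit Hif1a encodes, is known from other cells to activate Slc2a1 and Slc16a3 at low oxygen. BCR-ABL itself is known to raise glucose uptake in leukemic cells.

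Hif1a itself read 11.25 and 11.39 on Hif1a-/- replicates 1 and 2, against 11.34 and 11.50 on WT replicates 1 and 2. The groups overlapped, and the difference was -0.09 on the log2 scale (95% interval of -0.42 to 0.23). Which part of the gene the probe set covers is not stated, and probes outside a deleted part can still bind, so this value is a weak check of the labels. The arrays correlated over all genes at 0.995 within Hif1a-/-, at 0.981 within WT and at 0.988 to 0.993 between genotypes, so the WT arrays were the least alike.

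The lactate exporter gene Slc16a3 and both main glucose transporter genes, Slc2a1 and Slc2a3, read lower in the Hif1a-/- samples than in the WT samples, without overlap between the groups. Slc2a8 and Slc16a10 read slightly higher without overlap, and Slc2a6, Slc16a1, Slc16a6 and Bsg had groups that overlapped. The Hif1a-/- values were thus all below the WT values in 3 of the 9 genes, as in 9.05% of all genes, and all above in 2 of the 9, as in 15.7% of all genes. An unadjusted limma p under 0.05 was reached by 2 of the 9, Slc16a3 and Slc2a1, both lower, beside 0.978% of all genes lower and 0.697% higher. After Benjamini-Hochberg adjustment over all genes limma called 0 of the 9 and 0 of 19938 genes (0% called), while an unadjusted p below that threshold was found for 334 genes. Of these, 195 read lower and 139 higher in Hif1a-/- cells, beside 255 lower and 95 higher with array medians centred. The share of 334 genes in 19938 is under 0.05, the share that calibrated p-values of unchanged genes would give. Every adjusted limma p of the 9 genes was 0.999. The median difference over the 9 genes was -0.0010 on the log2 scale, Hif1a-/- minus WT, beside 0.03 over all genes. Of all genes, 38.6% averaged less and 61.4% more in Hif1a-/- cells. These shares depend on small offsets between arrays: they were 47.1% and 52.9% with array medians centred. A second quantile normalization gave 47.2% and 52.8%.

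**Figure D1:**
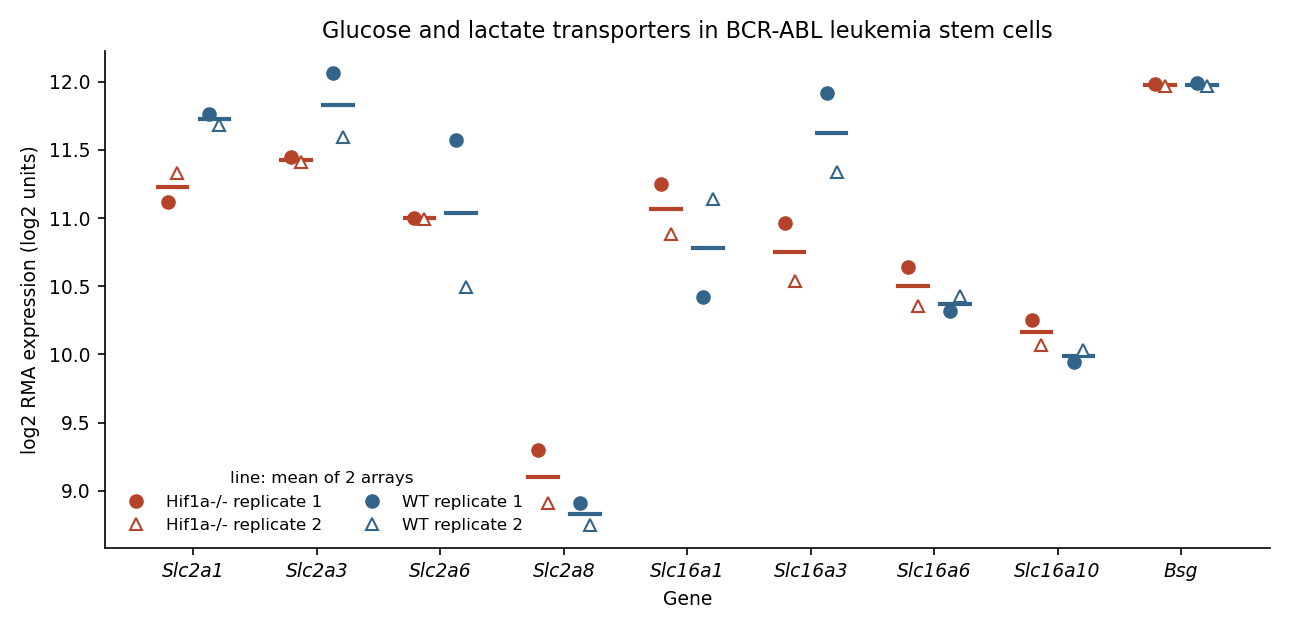
Log2 RMA expression of the 9 genes on each array (vertical axis, log2 units), Hif1a-/- in red on the left and WT in blue on the right of each gene, with replicate 1 as circles, replicate 2 as open triangles and the mean of 2 arrays as a line. Slc2a1, Slc2a3 and Slc16a3 have both red points below both blue points, and the WT points of Slc2a6 lie 1.08 apart; heights of different genes come from different probe sets and are not comparable.

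Slc2a1, the basal glucose transporter, read 11.12 and 11.33 on Hif1a-/- replicates 1 and 2, against 11.77 and 11.68 on WT replicates 1 and 2. The groups were apart by 0.35 between their nearest arrays, more than the distance between the arrays of either group (0.21 in Hif1a-/-, 0.09 in WT). The log2 difference was -0.50 ± 0.14 (SE), with a 95% interval of -0.82 to -0.17, which is 1.41-fold lower in Hif1a-/- cells. Its unadjusted limma p was 0.00897, rank 57 of 19938 genes. The sign held with any 1 array left out, with differences from -0.60 to -0.39, although the unadjusted limma p was 0.126 without Hif1a-/- replicate 1.

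Slc2a3, the high-affinity transporter, read 11.45 and 11.41 on the Hif1a-/- arrays, against 12.06 and 11.59 on the WT arrays. The Hif1a-/- arrays were close together, and WT replicate 1 stood above the rest. The difference was -0.40 ± 0.18 (SE), with a 95% interval of -0.82 to 0.03. Its unadjusted limma p was 0.0627. The difference was -0.16 without WT replicate 1 and -0.63 without WT replicate 2, so its size rests on which WT array is used.

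Slc2a6 and Slc2a8 encode GLUT6 and GLUT8, transporters kept mainly on membranes inside the cell, and neither gave a difference that held against the arrays' spread. Slc2a6 read 11.003 and 10.997 on the Hif1a-/- arrays, against 11.57 on WT replicate 1 and 10.50 on WT replicate 2. Both Hif1a-/- arrays therefore lay between the WT arrays. The difference was -0.04, with a 95% interval from -0.81 to 0.74, and it was 0.50 without WT replicate 1 and -0.58 without WT replicate 2. Slc2a8 read 9.30 and 8.91 on the Hif1a-/- arrays, against 8.91 and 8.75 on the WT arrays. Its nearest arrays, Hif1a-/- replicate 2 and WT replicate 1, were only 0.000369 apart. The difference was 0.28 ± 0.17 (SE), with a 95% interval of -0.13 to 0.68. Its unadjusted limma p was 0.147. The difference was 0.081 without Hif1a-/- replicate 1.

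Slc16a3, which encodes the lactate exporter MCT4, read 10.97 and 10.54 on the Hif1a-/- arrays, against 11.92 and 11.34 on the WT arrays. Its replicates were spread in both groups, by 0.43 in Hif1a-/- and 0.58 in WT, and the nearest arrays of the groups were 0.37 apart. The difference was -0.87 ± 0.23 (SE), with a 95% interval from -1.43 to -0.31, which is 1.83-fold lower in Hif1a-/- cells. Its unadjusted limma p of 0.00838 ranked 53 of 19938 genes. With 1 array left out the difference ranged from -1.16 without WT replicate 2 to -0.58 without WT replicate 1.

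Slc16a1, which encodes the other main lactate carrier, MCT1, read 11.25 and 10.88 on the Hif1a-/- arrays, against 10.42 and 11.14 on the WT arrays, and the groups overlapped. WT replicate 1 was the lowest of the 4 arrays and Hif1a-/- replicate 1 the highest. The difference was 0.28 ± 0.25 (SE), with a 95% interval from -0.33 to 0.89, and it turned to -0.077 without WT replicate 1. Within arrays, the log2 value of Slc16a3 minus that of Slc16a1 was -0.28 and -0.34 on the Hif1a-/- arrays, against 1.49 and 0.19 on the WT arrays. These 4 values serve only to compare arrays, since they join different probe sets. Their groups did not overlap, and the genotypes differed by -1.15, with an exact two-sided permutation p of 0.333, the smallest that 2 against 2 arrays allow. The difference was -0.51 without WT replicate 1 and -1.80 without WT replicate 2.

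Bsg, the chaperone of both carriers, read 11.98 and 11.97 on the Hif1a-/- arrays, against 11.99 and 11.97 on the WT arrays. All 4 arrays thus lay within about 0.02 of each other. The difference was -0.0010, with a 95% interval from -0.29 to 0.29, so a difference of the size seen for Slc2a1 lies outside the interval.

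The remaining pair of carriers is not known for lactate transport. Slc16a6 encodes MCT7, known in zebrafish as an exporter of ketone bodies, and Slc16a10 encodes TAT1, a transporter of aromatic amino acids. Slc16a6 read 10.64 and 10.36 on the Hif1a-/- arrays, against 10.32 and 10.43 on the WT arrays, with a difference of 0.13 (95% interval from -0.22 to 0.48) that was -0.015 without Hif1a-/- replicate 1. Slc16a10 read 10.25 and 10.07 on the Hif1a-/- arrays, against 9.95 and 10.04 on the WT arrays. Its groups did not overlap, but the nearest arrays were 0.03 apart and the difference of 0.17 had a 95% interval from -0.15 to 0.49. It was 0.080 without Hif1a-/- replicate 1.

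**Figure D2:**
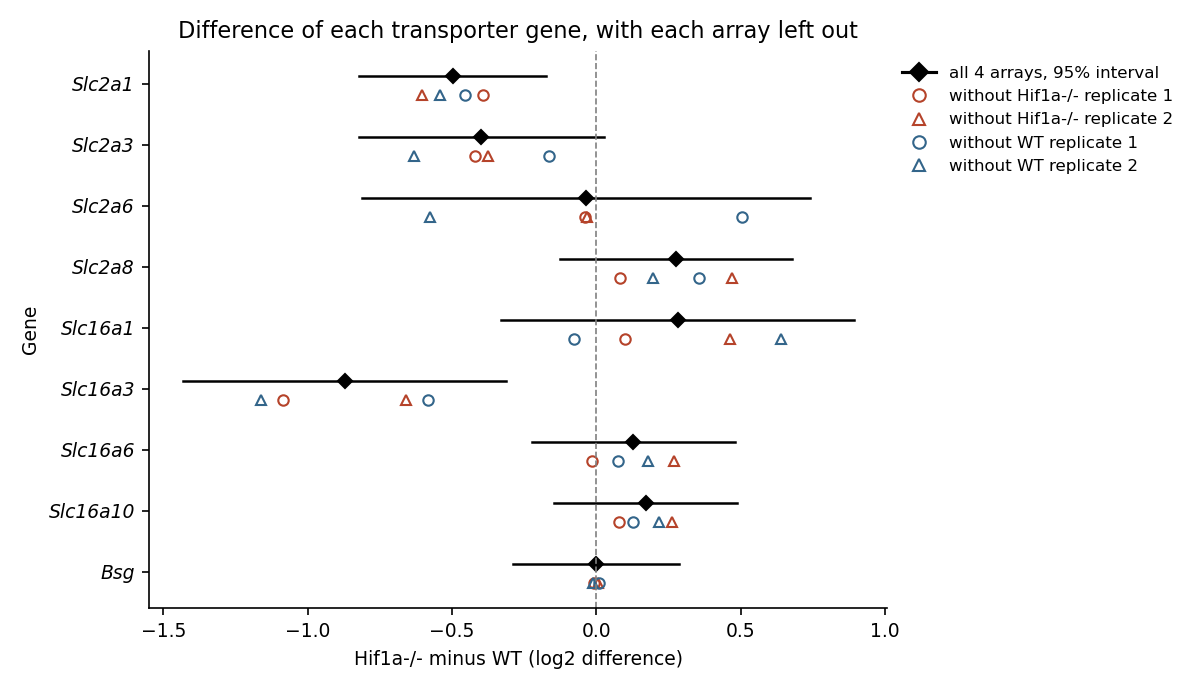
Log2 difference, Hif1a-/- minus WT (horizontal axis), of each of the 9 genes. Black diamonds with lines give the value on all 4 arrays with its 95% interval from limma's moderated variance, and open symbols give the value with 1 array left out. The intervals of Slc2a1 and Slc16a3 lie below 0, and the values of Slc2a6 spread from -0.58 to 0.50 with either WT array left out.

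Promoter sequences are shown for the lactate carrier genes with unlike differences and for Slc2a1, because the core of the DNA site that HIF binds, ACGTG or GCGTG, can be looked up in them. The windows come from RefSeq (GRCm38.p6) and run from 250 bases before to 50 bases after a transcription start, 5′ to 3′ on the strand of the gene. Capitals mark ACGTG or GCGTG on either strand, read as CACGT or CACGC on the opposite one. The window of Slc16a3 lies at chr11:120948817-120949116 on the + strand, that of Slc2a1 at chr4:119108495-119108794 on the + strand and that of Slc16a1 at chr3:104638414-104638713 on the + strand.
Slc16a3: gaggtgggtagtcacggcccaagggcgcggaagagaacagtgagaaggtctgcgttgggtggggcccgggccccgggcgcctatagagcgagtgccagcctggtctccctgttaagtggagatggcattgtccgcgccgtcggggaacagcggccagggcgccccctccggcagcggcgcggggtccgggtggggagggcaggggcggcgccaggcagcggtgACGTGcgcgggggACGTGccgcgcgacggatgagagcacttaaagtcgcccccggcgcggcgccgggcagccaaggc
Slc2a1: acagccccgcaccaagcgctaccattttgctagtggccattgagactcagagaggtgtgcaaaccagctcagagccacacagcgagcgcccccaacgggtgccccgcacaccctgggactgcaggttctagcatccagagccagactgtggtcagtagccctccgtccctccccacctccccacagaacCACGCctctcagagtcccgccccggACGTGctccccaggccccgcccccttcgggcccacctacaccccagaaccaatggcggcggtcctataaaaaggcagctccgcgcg
Slc16a1: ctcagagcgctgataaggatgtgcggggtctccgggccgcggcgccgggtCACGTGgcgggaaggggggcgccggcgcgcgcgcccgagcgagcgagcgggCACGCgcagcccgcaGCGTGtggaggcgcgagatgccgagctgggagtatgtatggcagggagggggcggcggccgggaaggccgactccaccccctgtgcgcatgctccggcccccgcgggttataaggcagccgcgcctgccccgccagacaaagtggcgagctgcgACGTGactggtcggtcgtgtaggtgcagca

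The Slc16a3 window held ACGTG at 2 places, with first bases at positions -27 and -14, counted from the base before the transcription start of the window. The annotated gene Slc16a3 begins further upstream, at base 120948484, outside this window. That of Slc2a1 held GCGTG on the opposite strand at -61 and ACGTG at -36. The Slc16a1 window held 5 matches, of which 2 overlapped in 1 palindrome, CACGTG, that other factors also bind. Of the 9 genes, 6 had a window in the table, and all 6 held at least 1 match, among them Slc2a6 with 4, Slc16a10 with 2 and Slc2a8 with 1. Such matches are common: 43.8% of 32851 windows of the same length held at least 1, and 71.0% of the 11920 windows with at least 14 CG dinucleotides, the fewest in these 6. Slc16a1, with its overlapping groups, had more matches than Slc16a3 or Slc2a1, which read lower in Hif1a-/- cells. At least 2 matches were held by 20.6% of all windows, and at least 5 by 1.66%. The windows of Slc16a1, Slc16a3 and Slc2a1 held 42, 36 and 18 CG dinucleotides. A relation between matches and differences was not tested. A match of letters does not show a bound site, and sites further from the start are not in these windows.

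Genes that act with these transporters were taken as 4 lists. Among enzymes of glycolysis and lactate metabolism, 14 of 18 measured genes averaged less in Hif1a-/- cells, beside 38.6% of all genes. With genes under the median of mean expression left out, 13 of 15 did, beside 46% of all genes kept. Centring the array medians left 14 of 18, beside 47.1% of all genes. In 12 of the 18 the Hif1a-/- values were all below the WT values, beside 9.05% of all genes, and in 1 all above, beside 15.7%. The list had a median difference of -0.24, from -0.27 to -0.19 with 1 array left out, and 4 of its genes had an unadjusted limma p under 0.05, all lower, beside 0.978% of all genes lower. These were Aldoc, an aldolase (-0.44), Pkm, the pyruvate kinase (-0.36), Pfkl, a phosphofructokinase (-0.52), and Pgk1, phosphoglycerate kinase (-0.30). None of the 4 had an unadjusted limma p under 0.05 without Hif1a-/- replicate 1 (0.153 to 0.252), and only Pfkl had one without Hif1a-/- replicate 2. Pkm and Pgk1 also missed it without WT replicate 1, and Pfkl without WT replicate 2. The value of Pfkl was -0.23 without WT replicate 2 and -0.80 without WT replicate 1. With all 4 arrays the unadjusted limma p of Pkm was 0.0602 with the mean of its probe sets and 0.0677 with a floor. That of Pfkl was 0.179 with a floor and 0.0510 with a variance trend. That of Pgk1 was 0.0662 with genes under the 25th percentile left out and 0.0551 with a robust trend. With genes under the median left out, 0 of the 15 enzymes kept had one under 0.05 (Pkm 0.0636, Pfkl 0.0541, Pgk1 0.0881). Aldoc was not among those 15, and with all 4 arrays it stayed under 0.05 wherever it was tested. The adjusted limma p was 0.999 for each of them, as for Slc16a3 and Slc2a1, which read lower beside them.

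Other genes of the transporter families showed no shift that held under every alternative. Among 15 other hexose transporter genes, 11 averaged more and 4 less in Hif1a-/- cells, beside 61.4% and 38.6% of all genes. Their median difference was 0.08, between the 25th and 75th percentile of all genes (-0.05 and 0.11), and 0 had an unadjusted limma p under 0.05. The smallest p were those of Slc2a5, the fructose transporter (0.24, p of 0.124), and Slc5a9, a sodium-coupled sugar transporter (0.21, p of 0.137). The median of this list was -0.0025 without WT replicate 2 and 0.23 without WT replicate 1. Of 13 measured genes in the list of other monocarboxylate transporters and the chaperone Emb, 10 averaged more and 3 less in Hif1a-/- cells, the median was 0.13 and 0 had an unadjusted limma p under 0.05. With genes under the median of mean expression left out, 2 of the 15 hexose transporter genes remained, with a median of -0.08, and 3 of the 13, with a median of -0.12, beside 0.01 over all genes. With a floor at the 25th percentile of all values the medians were 0 and 0.02. Of the genes with higher means, all 11 hexose transporter genes and 9 of the 10 others were below the median of mean expression. Slc16a12, known as a creatine carrier, differed by 0.28 (unadjusted limma p of 0.111) and Slc5a12, a sodium-coupled lactate transporter, by 0.21 (p of 0.142). Slc2a5, Slc5a9, Slc16a12 and Slc5a12 ranked between the 19th and 39th percentile of mean expression, and RMA understates differences of dim genes.

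Proteins that move GLUT transporters to and from the cell surface formed the fourth list. Of 12 measured trafficking and turnover genes, 10 averaged less in Hif1a-/- cells, beside 38.6% of all genes, 6 of them without overlap and all 6 below WT, beside 9.05%. With genes under the median of mean expression left out, 9 of 11 averaged less, beside 46% of all genes kept. The median was -0.12, and 1 gene, Tbc1d4, had an unadjusted limma p under 0.05, beside 0.978% of all genes lower. With genes under the median of mean expression left out, or with the replicate number as a block, 0 genes of the list did. Tbc1d4 encodes the GTPase-activating protein AS160 that holds glucose transporters inside the cell. Tbc1d4 read 8.52 and 8.64 on the Hif1a-/- arrays, against 8.91 and 8.97 on the WT arrays. Its difference was -0.36 ± 0.12 (SE), with an unadjusted limma p of 0.0272, which became 0.242 without Hif1a-/- replicate 1 and 0.104 without Hif1a-/- replicate 2, and an adjusted limma p of 0.999.

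**Figure D3:**
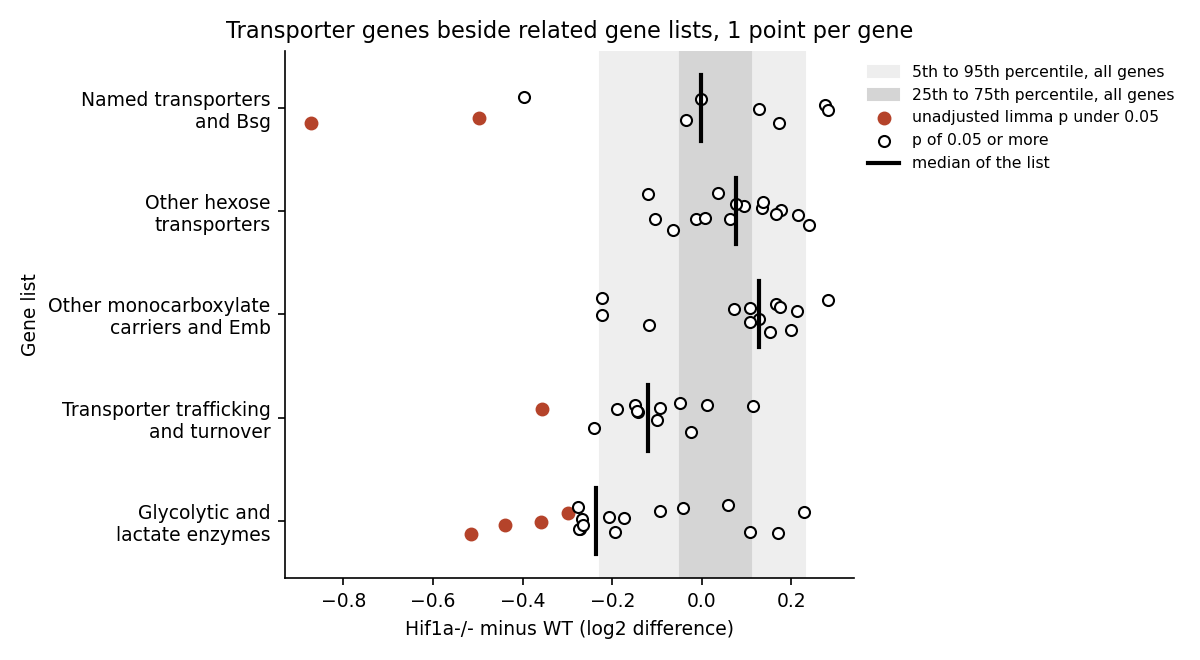
Log2 difference, Hif1a-/- minus WT (horizontal axis), of each gene of the 9 named genes and of 4 related lists (vertical axis), with list medians as black bars and, in grey, the 5th to 95th and 25th to 75th percentile of all genes. Red points have an unadjusted limma p under 0.05: Slc16a3 and Slc2a1 in the top row, 0 genes of the other transporter families, Tbc1d4 among trafficking genes and 4 enzymes of glycolysis.

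The sorted cells were checked against markers. Kit was at percentile 87.5 of mean expression, and 10 of 12 lymphoid markers were below the median of all genes. Of the 10 measured stem and progenitor markers, which include Kit, 3 were also below that median. These were Mecom, Procr and Slamf1, at percentiles 33.6, 39.1 and 49.1. Ly6a, the gene of Sca-1, was not analysed here, since only probe sets of 1 symbol were used. Markers of granulocytes were bright in these lineage-negative cells, with Ly6g at percentile 96.2. Their level split the WT arrays: Ly6g read 11.74 and 11.64 on the Hif1a-/- arrays, against 13.10 and 10.64 on the WT arrays. The summed linear signal of 17 granulocyte and monocyte markers was 95142 to 102555 in Hif1a-/-, against 78738 to 129207 in WT. The 17 markers did not all move alike. As WT replicate 2 minus replicate 1, Mpo (0.70), Prtn3 (0.67), Csf1r (0.36), Elane (0.34) and Ctsg (0.32) were higher, and the rest lower. The transporter genes that differed most between the WT arrays were Slc2a6, by -1.08 as replicate 2 minus replicate 1, Slc16a1 by 0.72, Slc16a3 by -0.58 and Slc2a3 by -0.47. On the same scale the granulocyte and monocyte markers had a median of -1.17. Other lists split the WT arrays too: the median was 0.72 for the stem and progenitor markers and -0.36 for the lymphoid markers. The remaining marker lists had medians from -0.14 to -0.015. The part of any of these cell types in the transporter values was not tested, and in a bulk sample fewer cells of a type and less RNA per cell cannot be told apart.

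Markers of further cell types also read differently by genotype, with 0 of them past limma's adjusted threshold. An unadjusted limma p under 0.05 was reached by 8 of 12 erythroid markers, all higher, beside 0.697% of all genes, and by 6 of 10 dendritic cell markers and 4 of 12 mast cell and basophil markers, all lower, beside 0.978%. Without Hif1a-/- replicate 1 these were 0, 4 and 2. All 12 measured erythroid markers averaged more in Hif1a-/- cells, 8 of them without overlap (15.7% of all genes), with a median of 0.37 (0.31 to 0.45 with 1 array left out) and a summed linear signal of 31470 to 41204 in Hif1a-/-, against 23899 to 27486 in WT. All 12 mast cell and basophil markers had a lower mean, 5 without overlap (9.05% of all genes) and 7 with overlapping groups. Their differences were unlike in size, from -1.63 for Mcpt2 to -0.09 for Mcpt8 and -0.02 for Prss34. The median was -0.46, with -0.18 without Hif1a-/- replicate 1 and -0.76 without Hif1a-/- replicate 2. It was -0.17 over the 9 genes kept when genes under the median of mean expression were left out. The summed signal was 48130 to 54215 in Hif1a-/-, against 53572 to 63711 in WT. Of 10 dendritic cell markers 8 had a lower mean, 6 of them without overlap, with a median of -0.53 (-0.62 to -0.37 with 1 array left out) and a summed signal of 12871 to 13650 in Hif1a-/-, against 19466 to 20006 in WT. The median of 7 megakaryocyte markers was 0.18, from 0.047 to 0.22 with 1 array left out. Those of the other 3 lists changed sign with the array left out: 0.04 for 12 lymphoid markers (-0.11 to 0.22), -0.02 for the 17 granulocyte and monocyte markers (-0.48 to 0.58) and -0.08 for 10 markers of stem and progenitor cells (-0.39 to 0.23). The 6 dendritic cell markers with an unadjusted limma p under 0.05 were Xcr1, Clec9a, Itgax, H2-Aa, H2-Ab1 and Cd74, while Batf3 differed by 0.04 and Siglech by 0.19. Such a p was also reached by 1 of 7 megakaryocyte markers, Gp5 (0.37), and 1 of 10 stem and progenitor markers, Erg (-0.50). In the granulocyte and monocyte list and the lymphoid list 0 genes reached it. The part of all these cell types in the differences of Slc16a3, Slc2a1 and Slc2a3 was not tested.

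**Figure D4:**
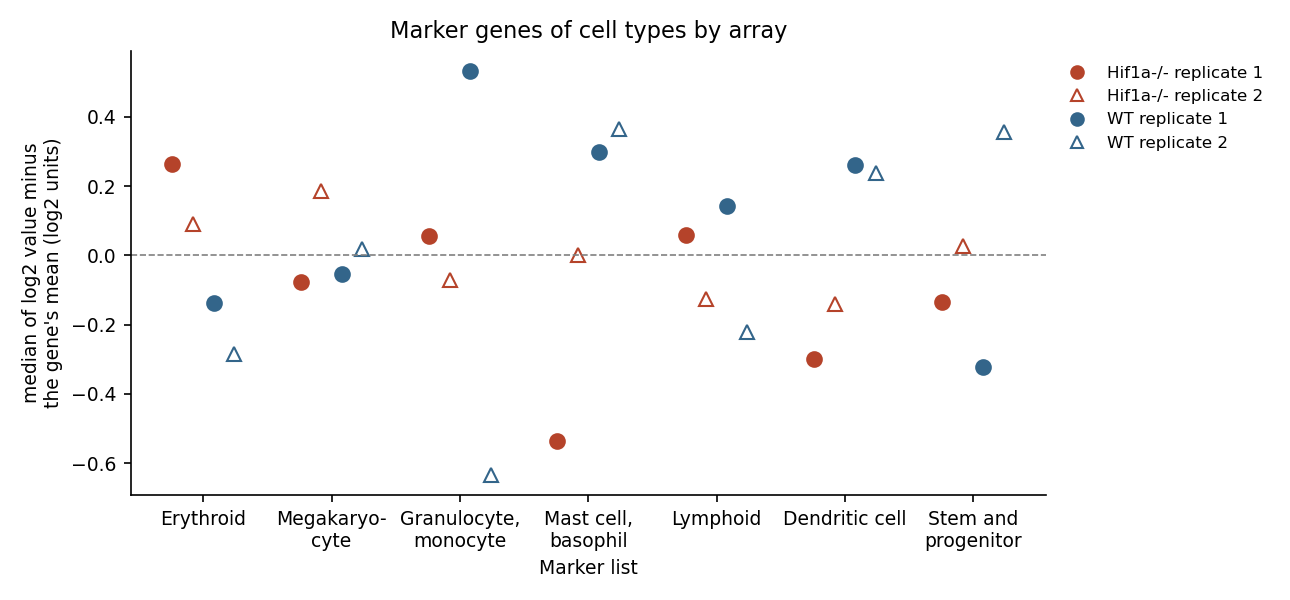
Median over each marker list of the log2 value minus the gene's mean over the 4 arrays (vertical axis, log2 units), for 7 marker lists (horizontal axis) on the Hif1a-/- arrays (red, left) and WT arrays (blue, right). Erythroid markers are higher and mast cell and dendritic cell markers lower on both Hif1a-/- arrays. The WT arrays lie apart for granulocyte and monocyte markers (0.53 and -0.63 on replicates 1 and 2) and lymphoid markers (0.14 and -0.22). They lie apart in the opposite order for stem and progenitor markers (-0.32 and 0.36).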

How the data were processed

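RNA of 2 Hif1a-/- and 2 WT samples was measured on 1 array each. The authors deposited log2 expression values made with Affymetrix Expression Console 1.1 and RMA, per the submitters' processing notes, for 35556 probe sets; no other setting is named in the sources used here. RMA equalises the arrays' distributions, so a change of total RNA per cell is removed, and it compresses differences of dim genes. 

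Gene symbols came from GEO's annotation of the platform: 21789 carried 1 symbol, 1621 several and 12146 none here. Only the first kind was kept, with the highest-mean set per gene. Symbols were checked by Entrez number in RefSeq's GRCm38.p6 gene table. All genes were fitted with limma 3.58.1 in R 4.3.3 (lmFit, eBayes, genotype as the only term, two-sided, 2 residual and 4.46 prior degrees of freedom), with Benjamini-Hochberg adjustment over all 19938 genes and a threshold of 0.05. The procedure was tested on simulated data. The number of arrays limits the precision: the median standard error of a difference was 0.14.

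The 9 genes, the lists of related genes (138 of 156 entries measured) and the marker lists were chosen with earlier results of these data known. Text beyond the 9 genes and Hif1a names, for each related list, its genes with an unadjusted p under 0.05 or otherwise those 2 with the smallest p; for marker lists it gives levels. Kit, Ly6a, Ly6g and the other markers named singly were chosen after their values were seen. No list was tested as a set. The labels do not say that equal replicate numbers pair the samples, so the main fit had no block. The deviations of equally numbered arrays correlated at -0.0072 over genes. With 2 arrays per group, this value cannot exclude a shared day or batch.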

Additional observations from a re-analysis of the deposited data

How the results depend on the processing

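Every alternative kept the sign of Slc16a3, Slc2a1, Slc2a3, Slc2a8 and Slc16a10. The 10 alternatives that used all 4 arrays kept 89 of 90 signs of the 9 genes, the exception being Bsg, at 0.016 after a second quantile normalization. With 1 array left out, 5 of 36 turned: Bsg to 0.0062 without Hif1a-/- replicate 2 and 0.0093 without WT replicate 1, Slc16a6 to -0.015 without Hif1a-/- replicate 1, and Slc2a6 to 0.50 and Slc16a1 to -0.077 without WT replicate 1. The ranges over arrays left out were -0.011 to 0.0093 for Bsg, -0.015 to 0.27 for Slc16a6, -0.58 to 0.50 for Slc2a6 and -0.077 to 0.64 for Slc16a1. Genes with an adjusted limma p under 0.05 numbered 0 as reported, 1 with a variance trend, 2 with a robust trend, 47 with the replicate number as a block and 2 to 1442 with 1 array left out. The block left 1 residual degree of freedom and gave every gene the same standard error of 0.20, with adjusted p of 0.0128 for Slc16a3 and 1.00 for Slc2a1. Without WT replicate 2 the adjusted limma p was 0.000173 for Slc16a3, 0.022 for Slc2a1 and 0.006 for Slc2a3, and also 0.0111 for Slc2a6 and 0.0128 for Slc16a1; the lone WT array is then assumed to vary like the Hif1a-/- arrays. Without WT replicate 1 the values were 0.069 for Slc16a3, 0.127 for Slc2a1, 0.623 for Slc2a3 and 0.860 for Slc16a1. The unadjusted limma p of Slc16a3 was 0.096 with a floor and at most 0.0346 under the other alternatives. Genes with an unadjusted p under 0.05 numbered 334 as reported, 216 with genes under the 25th percentile of mean expression left out and 129 with those under the median left out, which leave fewer genes, 627 with a floor, 1166 over all probe sets and 94 to 3628 with 1 array left out. Reading list medians, list counts and the within-array difference of Slc16a3 and Slc16a1 under these alternatives was decided after seeing the data. The medians of trafficking genes, glycolytic enzymes and erythroid, megakaryocyte, mast cell and dendritic cell markers kept their sign in all of them.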
